A study of Mus musculus with 221 samples.

Results

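Yolk sac (YS) cells of 2 early blood progenitor clusters, p1 and p2, were compared here as long reads of single cells. The sample labels call p1 lymphomyeloid (LMP) skewed and p2 erythromyeloid (EMP) skewed. Of 221 cells sequenced in the series, 18 carried the label p1 and 21 the label p2, and 17 and 20 of them passed a lower limit of 17595 counts per cell, as did 208 cells of the series. The 37 progenitors were all sorted from YS of untreated mouse embryos at embryonic days E9.0, E9.5 and E10.5, from crosses of reporter males with wild-type CD-1 females. The reporters were Runx1b:RFP, alone or together with Gfi1:GFP. The sort took endothelial (CD31+) KIT+ cells without the blood lineage markers CD41, CD45 and TER119, so cells that had already put those proteins on their surface were outside the gate. The labels do not tie cells to embryos or litters. Each population therefore counted as 1 sample, and no difference here has a replicate check or a test. Values are followed by 95% intervals in parentheses, exact Poisson for counts and exact binomial for shares, which reflect only the error of counting. The cluster labels were assigned from short reads of the same complementary DNA, so every gene took part in choosing the cells and each difference between p1 and p2 is a description.

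Blood in the early embryo buds from hemogenic endothelium (HE), vessel-lining cells that switch to a blood identity in the endothelial-to-hematopoietic transition (EHT). In the yolk sac this transition first yields EMPs, which make red cells, megakaryocytes and myeloid cells, and later LMPs, which make lymphoid and myeloid cells. Progenitors that have just left the endothelium keep some endothelial RNA while the RNAs of their later lineages are only starting to appear. The comparison asks which genes and which transcript forms separate the earliest cells of these 2 fates.

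The summed counts were 656575 in p1, with 19398 to 72659 counts per cell, and 732446 in p2, with 19575 to 57272 per cell. A cell held 2969 to 6002 detected genes in p1 (median 3763) and 3104 to 5442 in p2 (median 4249.5), where a gene was detected with at least 1 count. The cells were spread over 3 nanopore runs, with 6, 5 and 6 p1 cells and 7, 6 and 7 p2 cells in runs 1, 2 and 3. Stage was not balanced. In p1, 15 cells were from E10.5 and 2 from E9.5, whereas p2 held 6 cells from E10.5, 9 from E9.5 and 5 from E9.0. Run 3 held no p2 cell from E10.5. The cDNA plate moved with the population as well, since 14 of 17 p1 cells came from plates WN-S6-3 and WN-S6-4 and 13 of 20 p2 cells from plate WN-S6-2. The library names give the Gfi1 gate for 5 p1 and 2 p2 cells and the Runx1 gate for the others. Population, stage and plate cannot be told apart over all cells, so values of E10.5 cells alone are given beside many of the results.

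Sex-linked RNA also differed between the populations. Xist, the RNA that silences one X chromosome in female cells, had at least 1 count in 4 of 17 p1 cells and 12 of 20 p2 cells. At least 1 of Eif2s3y, Ddx3y, Kdm5d and Uty, all on the Y chromosome, was seen in 9 p1 cells and 3 p2 cells, and no cell had both Xist and a Y-linked count. The part of embryo sex in any gene difference was not tested. Signs of RNA quality were close. Mitochondrial transcripts took a median of 2.24% of a cell's counts in p1 and 2.31% in p2, retained-intron transcripts 5.06% and 5.22%, and processed pseudogenes 26.9% and 27.3%. The mean length of the counted transcripts had a median of 1063 bases over p1 cells and 1139 bases over p2 cells.

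Few genes differed strongly between p1 and p2. Expression is given as counts per 1000000 summed counts of a population (CPM), and ratios as the log2 of p1 over p2 with 0.5 counts added to each. Of 2482 genes with at least 100 counts over both populations, 62 (2.50%) were at least 2-fold higher in p1 and 63 (2.54%) at least 2-fold higher in p2. The median log2 ratio of these genes was -0.03. Of the 62, 51 (2.05% of the genes measured) were higher in p1 in each run, and the same number, 51 (2.05%), also in E10.5 cells alone. Of the 63, 55 (2.22%) were higher in p2 in each run and 53 (2.14%) in each run and at E10.5. A 2-fold difference in each of the 3 runs was seen for 12 genes (0.483%) toward p1 and 11 (0.443%) toward p2. With the limit lowered to 20 counts, 566 of 6120 genes (9.25%) were 2-fold higher in p1 and 571 (9.33%) in p2, and these shares are the background for the gene lists. The genes higher in p2 were longer. The median transcript length was 1502 bases for the 63 genes higher in p2, 950 bases for the 62 genes higher in p1 and 977 bases for all 2482 genes. The part of transcript length in the gene differences was not tested.

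**Figure D1:**
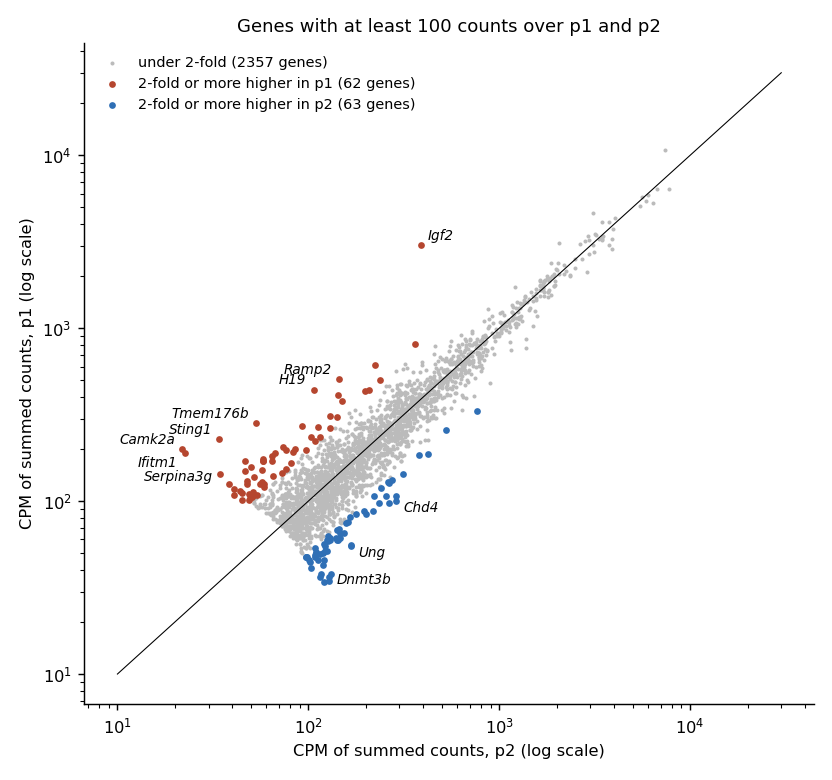
Expression of 2482 genes in p1 (vertical axis) against p2 (horizontal axis), both in CPM on log scales, each point 1 gene. The 62 genes at least 2-fold higher in p1 and the 63 at least 2-fold higher in p2 are coloured, and the other 2357 genes lie between them along the diagonal.

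Igf2 had the highest level of the 62 genes higher in p1, and its imprinted neighbour H19 was among them. Igf2 encodes a fetal growth factor, and H19 is a long non-coding RNA from the neighbouring gene that shares its control region. The Igf2 level per cell ran from 41.3 CPM through a median of 2773 to 7621 CPM in p1, and from 0 through 226 to 1571 CPM in p2. The ranges overlapped, but 11 of 17 p1 cells lay above the highest p2 cell. Summed over cells, Igf2 was at 3021 CPM (2889 to 3156) in p1 and 387 CPM (344 to 436) in p2, which is 7.79-fold higher in p1. The log2 ratio was 2.95, 2.84 and 3.14 in runs 1, 2 and 3 and 2.54 among E10.5 cells. Within p1 the E9.5 cells held 2541 CPM and the E10.5 cells 3107 CPM, and within p2 the cells of E9.0 and E9.5 held 319 CPM and those of E10.5 531 CPM, so both p1 stages lay above both p2 stages. H19 ran from 0 through a median of 375 to 1270 CPM over p1 cells and from 0 through 54.4 to 423 CPM over p2 cells. The median p1 cell thus lay close to the highest p2 cell, and 7 p1 cells lay above it. The summed level was 442 CPM in p1 and 106 CPM in p2, a log2 ratio of 2.05 (1.69 to 2.43), with 1.14, 1.72 and 3.01 in the 3 runs and 2.71 at E10.5.

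Igf2 and H19 differed in the same direction between the late HE populations. The labels give an arterial late HE population (HE-YSA late, 29 cells) and a plexus late HE population (HE-YSP late, 24 cells) of the yolk sac, which the study places before p1 and p2. Igf2 was at 12379 CPM in HE-YSA late and 2787 CPM in HE-YSP late, and H19 at 1749 and 626 CPM. Both genes were therefore higher in the late HE cells than in the progenitors of the same side. Of the 2478 genes with enough counts in late HE, 28 (1.13%) were at least 2-fold higher in HE-YSA and 90 (3.63%) in HE-YSP. Among the 62 genes higher in p1, 60 could be measured there, and 7 were 2-fold higher in HE-YSA and 7 in HE-YSP. Among the 63 genes higher in p2, 12 were 2-fold higher in HE-YSP and 2 in HE-YSA. The HE cells are other cells than the progenitors, but they were labelled from the same short-read clustering. Stage and gate differed between the late HE populations as well. Most HE-YSA late cells were from E10.5 and all were from the Gfi1 gate. Most HE-YSP late cells were from E9.0 or E9.5, and they came from both gates. Population, stage and gate therefore cannot be told apart over all late HE cells.

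By the naming rule, the 12 genes with the largest ratios toward p1, among genes seen in at least a set share of p1 cells and of 1 sign in every run and at E10.5, were Camk2a, Ifitm1, Igf2, Sting1, Tmem176b, H19, Serpina3g, Gnb4, Ramp2, Sf3a2, Batf and Plk1. Ifitm1, an interferon-induced membrane protein, had a median of 105 CPM over p1 cells and 0 over p2 cells, with highest cells of 1155 and 188 CPM. It had counts in 11 p1 and 6 p2 cells, and 6 p1 cells lay above every p2 cell. The summed level was 190.2 CPM against 22.5 CPM, a log2 ratio of 3.04 (2.37 to 3.97), though 1 cell, from E9.5, gave 40.02% of the p1 counts. Among E10.5 cells Ifitm1 was at 124 and 29.6 CPM, a log2 ratio of 1.97. Sting1, the adaptor through which cytosolic DNA triggers interferon, had counts in 12 p1 and 5 p2 cells. Its level ran from 0 through 185 to 872 CPM in p1 and from 0 through 0 to 227 CPM in p2, with 8 p1 cells above the highest p2 cell, and the log2 ratio was 2.72 overall and 2.53 at E10.5. In late HE Sting1 was at 177 CPM on the arterial side and 35.3 CPM on the plexus side.

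Camk2a, a calcium/calmodulin-dependent kinase subunit, went the other way in late HE. Its level ran from 0 through 31.6 to 1534 CPM over p1 cells and from 0 through 0 to 204 CPM over p2 cells, with counts in 10 and 4 cells. The ranges overlapped, with 3 p1 cells above the highest p2 cell. These were at 1534, 1397 and 330 CPM, so the summed p1 level came largely from 2 cells. The log2 ratio was 3.15 (2.44 to 4.04), but Camk2a was at 0.939 CPM in HE-YSA late and 19.5 CPM in HE-YSP late. Tmem176b, a membrane protein of immune cells, was at 282 CPM in p1 and 53.2 CPM in p2, a log2 ratio of 2.39, and at 3.05 among E10.5 cells. Batf, an AP-1 family transcription factor of lymphocytes, had counts in 13 p1 and 7 p2 cells and was at 149 and 46.4 CPM. Batf had no counts in the 6 p2 cells of E10.5. Gnb4, a beta subunit of heterotrimeric G proteins, was at 171 and 46.4 CPM, and Sf3a2, a subunit of the SF3a splicing complex, at 125 and 38.2 CPM.

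The ratios of 2 of these 12 genes were much smaller at equal stage. Plk1, a kinase of mitosis, was at 158 CPM in p1 and 49.9 CPM in p2, a log2 ratio of 1.65, but 0.43 among E10.5 cells and 0.37, 0.79 and 3.10 in the 3 runs. Serpina3g, a serine protease inhibitor, was at 144 and 34.5 CPM, a log2 ratio of 2.04 that was 0.27 at E10.5. Serpina3g belongs to a family of near-identical copies among which reads can be divided, so its level is uncertain.

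**Figure D2:**
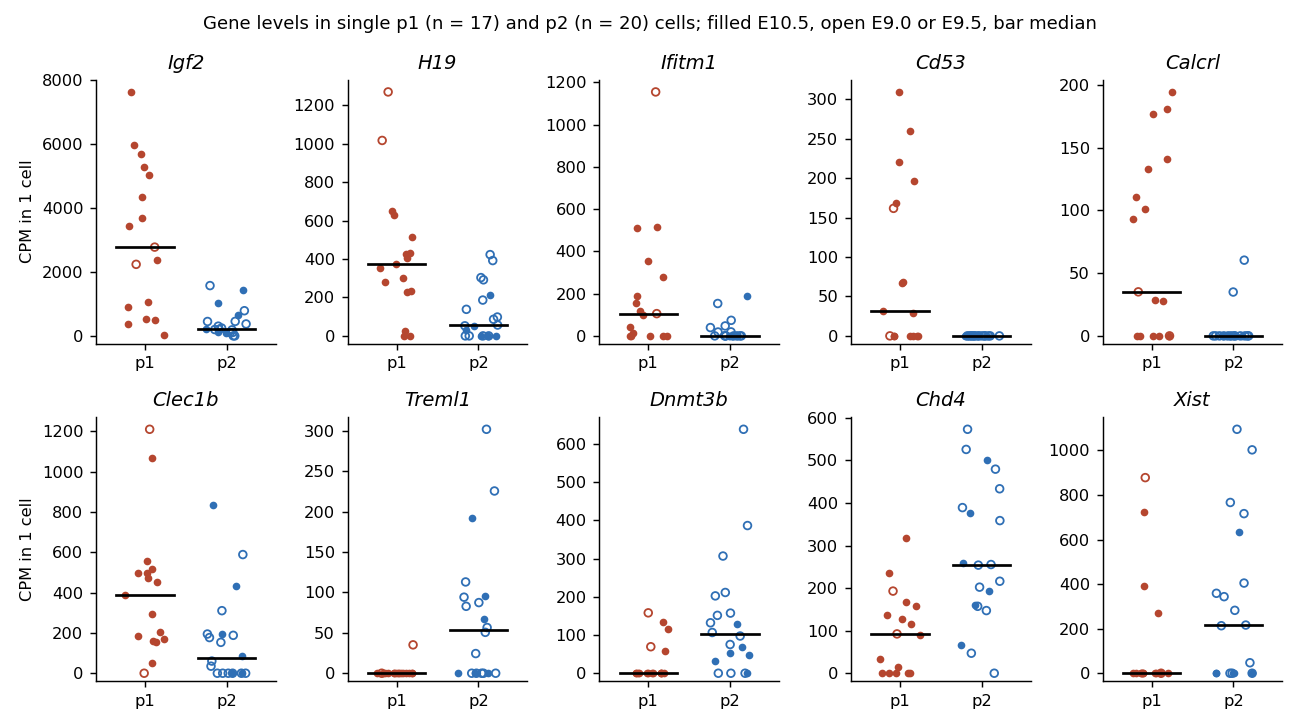
Expression of 10 genes in each p1 and p2 cell in CPM, each point 1 cell, with E10.5 cells filled, E9.0 and E9.5 cells open and a bar at the median. For Igf2, 11 p1 cells lie above the highest p2 cell, Cd53 has counts only in p1 cells, and Treml1 has counts in 1 p1 cell and 12 p2 cells.

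Among the less abundant genes, several were seen in p1 and not in p2. Cd53, a tetraspanin of leukocytes, had 55 counts over 10 p1 cells and none in the 20 p2 cells. Its level ran from 0 through 31.6 to 309 CPM in p1. A count of 0 allows up to 4.10 CPM in p2 and a share of up to 15% of p2 cells, so Cd53 was at least 20.5-fold higher in p1. Both p1 stages had it, at 69.8 CPM at E9.5 and 86.3 CPM at E10.5. In late HE, Cd53 was lower on the arterial side, at 8.45 CPM in HE-YSA and 32.9 CPM in HE-YSP. Emcn (endomucin, an endothelial sialomucin) had 50 counts over 7 p1 cells and none in p2, 18.6-fold higher on the same reading. Lgmn (legumain, a lysosomal protease) had 31 counts over 6 p1 cells and none in p2, 11.5-fold higher on that reading. Runx2, a relative of Runx1, had 23 counts and Dusp1, an immediate early phosphatase, 24 counts in p1 with none in p2, but in only 2 and 4 p1 cells.

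The 12 genes named by the same rule toward p2 were Gm45155, Dnmt3b, Snhg5, Ccne1, Ung, Ogfr, Chd4, Tie1, Xist, Plek, Ddx54 and Eif2s3x. Dnmt3b, which places new DNA methylation in the embryo, ran from 0 through 0 to 158 CPM over p1 cells and from 0 through 102 to 638 CPM over p2 cells. It had counts in 5 of 17 p1 cells and 16 of 20 p2 cells, and 5 p2 cells lay above every p1 cell. The summed level was 36.6 CPM in p1 and 128 CPM in p2, a log2 ratio of -1.79 (-2.52 to -1.15). At E10.5 alone it was 21.6 against 55.1 CPM, and at E9.0 to E9.5 it was 120 against 163 CPM. The earlier p1 value came from 2 cells, both of E9.5 and run 3, and its counting interval overlapped that of p2. Dnmt3b was lower at E10.5 in both populations. With few counts, the counting intervals of p1 and p2 overlapped at E10.5 as well. Chd4, the ATPase of the NuRD chromatin remodeller, ran from 0 through 92.4 to 318 CPM in p1 and from 0 through 255 to 573 CPM in p2. Its log2 ratio was -1.51 (-1.94 to -1.11) overall and -1.54 at E10.5, with 8 p2 cells above the highest p1 cell, while in late HE it was at 177 and 184 CPM.

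Snhg5, a host gene of small nucleolar RNAs, had counts in 7 p1 and 15 p2 cells and stood at 38.1 and 131 CPM. Ogfr, the opioid growth factor receptor, was at 38.1 and 116 CPM and Ddx54, an RNA helicase, at 41.1 and 104 CPM. Ccne1, a cyclin that starts S phase, was at 36.6 and 115 CPM with counts in 6 p1 and 10 p2 cells, and Gm45155, a long non-coding RNA, at 34.3 and 128 CPM. The log2 ratios of these 5 genes among E10.5 cells lay between -2.34 for Ccne1 and -1.17 for Ddx54. In several cells Gm45155 held only a fraction of 1 count, from reads divided with other transcripts, so its level is uncertain. Plek (pleckstrin, a protein kinase C substrate of platelets) had counts in 8 p1 and 15 p2 cells and was at 45.7 and 122 CPM. It was also lower on the arterial side of late HE, at 4.70 against 30.5 CPM.

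Stage or sex moved with the remaining genes of this set. Ung, which removes uracil from DNA, was at 54.8 CPM in p1 and 167 CPM in p2, but at 64.7 and 84.7 CPM among E10.5 cells. Tie1, an endothelial receptor, was at 42.6 and 119 CPM overall. By stage, however, Tie1 was at 170 CPM in p1 and 157 CPM in p2 at E9.0 to E9.5, and at 19.8 and 38.1 CPM at E10.5. Xist, at 107 and 288 CPM, moved with the share of cells that had it, and Eif2s3x, an X-linked translation factor that escapes X inactivation, was at 87.2 and 218 CPM.

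**Figure D3:**
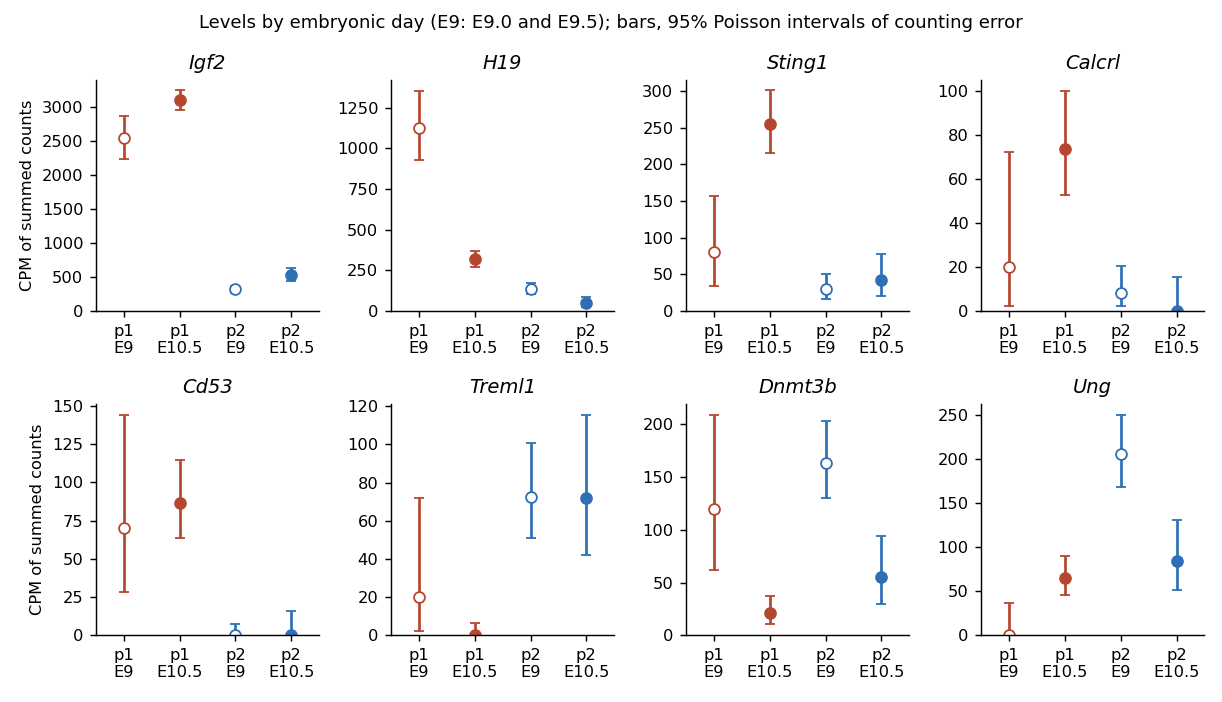
Summed expression of 8 genes in CPM by population and stage (E9.0 to E9.5 and E10.5), with 95% exact Poisson intervals for counting error only. Igf2 and Cd53 are higher in p1 at both stages, and Dnmt3b and Treml1 are higher in p2 at both stages. The earlier p1 values come from 2 cells of E9.5, and for Dnmt3b the intervals of p1 and p2 overlap at each stage.

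Treml1 gave the largest ratio toward p2 among the listed lineage genes. It encodes a receptor stored in platelet and megakaryocyte granules. Over p1 cells it ran from 0 through 0 to 35.1 CPM and over p2 cells from 0 through 53.6 to 302 CPM. It was seen in 1 p1 cell and 12 p2 cells, of which 11 lay above that p1 cell, with 2 counts in p1 and 53 in p2. The log2 ratio was -4.26 (-7.65 to -2.65). Treml1 was at 72.5 CPM in p2 cells of E9.0 to E9.5 and 71.99 CPM in p2 cells of E10.5, and had no counts in p1 cells of E10.5. It was listed at 0 in HE-YSA late and at 25.6 CPM in HE-YSP late.

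The megakaryocyte list as a whole was lower in p1, with 1 exception. Of 17 listed genes, 4 had no counts in either population and 7 had at least 20 counts. Of these 7, 4 were at least 2-fold higher in p2 (Treml1, Plek, Itga2b and Gp9) and 1 in p1 (Clec1b), with a median log2 ratio of -1.04 overall and -0.99 at E10.5. The run medians were -2.09, -0.36 and -0.19, so run 1 held most of the difference. The median of all genes with 20 counts was -0.02. Itga2b, the CD41 protein that the sort excluded, had 7 counts in p1 and 19 in p2, and Gp9, a subunit of the von Willebrand factor receptor, 8 and 19. Clec1b, the podoplanin receptor of platelets, ran from 0 through 389 to 1211 CPM over p1 cells and from 0 through 73.8 to 834 CPM over p2 cells. The summed level was 408 CPM in p1 and 143 CPM in p2, a log2 ratio of 1.51 that was 0.61 among E10.5 cells. In late HE Clec1b was lower on the arterial side, at 39.4 CPM against 430 CPM. The markers fixed for contaminating platelets and megakaryocytes are largely these same genes. Of those 10 markers, Gp1ba, Gp5 and Gp6 were at 0 in both populations and Pf4, a chemokine of platelet granules, had 3 counts in p1 and 6 in p2. Their sum ran from 0 to 1246 CPM per cell in p1 and from 0 to 834 CPM in p2. Their part in the platelet gene differences was not tested.

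Erythroid genes did not separate the populations as a group. Of 26 listed genes 7 had 20 counts, and 2 of them (Nfe2 and Blvrb) were 2-fold higher in p2 with none higher in p1, at a median of -0.17 overall and -0.21 at E10.5, with run medians of 0.16, -1.004 and 0.03. Nfe2, a transcription factor of megakaryocytes and red cells, was at 60.9 CPM in p1 and 146 CPM in p2, a log2 ratio of -1.25 overall and -1.97 at E10.5. Blvrb, a biliverdin and flavin reductase, had counts in 2 p1 cells, of which 1 held 92.3% of them, and 8 p2 cells, and its ratio was 1.93, toward p1, among E10.5 cells. Gfi1b, a repressor that red cell and megakaryocyte precursors need, was at 107 and 177 CPM (log2 ratio -0.73, -1.18 to -0.31, and -1.21 at E10.5). Car2 went the other way, at 465 and 330 CPM, a log2 ratio of 0.49 that was 1.86 among E10.5 cells. Of the 7 measured genes, 3 lay above 0 and 4 below, over all cells and at E10.5. The master erythroid factor Gata1 had no counts in p1 and 9 in p2, of which 1 cell held 88.9%, and Klf1 had no counts in either. Marker genes of primitive red cells were near 0 in both, with 6 of 10 at 0, among them Hbb-bh1 and Alas2. Their sum reached 1024 CPM in 1 p1 cell and at most 34.6 CPM in a p2 cell.

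On the lymphoid list, 5 of 27 genes could be measured and 12 had no counts in either population. Il2rg, the common gamma chain of interleukin receptors, was the abundant one. It ran from 0 through 606 to 1839 CPM over p1 cells and from 0 through 199.8 to 664 CPM over p2 cells, with 7 p1 cells above the highest p2 cell. The summed levels were 615 and 223 CPM, a log2 ratio of 1.46 (1.20 to 1.74), with 2.08, 0.42 and 1.64 in the 3 runs and 1.23 at E10.5. In late HE Il2rg was instead higher on the plexus side, at 474 against 226 CPM. Bcl11a, a repressor needed for lymphocyte development, was 2-fold higher in p1 and Satb1, a chromatin organiser of T cells, 2-fold higher in p2, but both had counts in at most 5 cells of a population. The ratio of Satb1 turned from -1.96 overall to 1.93 at E10.5. The 5 measured genes had a median of 0.56 overall and 1.49 at E10.5, where all 5 lay above 0. The lymphoid receptor Il7r was not detected in either population, and Flt3 had 1 count in p1 and none in p2. The lymphoid label of p1 therefore rests here on few genes with measurable counts.

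Granulocyte and monocyte genes were expressed in both. Of 20 listed genes 8 were measured, 1 of them 2-fold higher in p1 (Prtn3, a neutrophil granule protease) and none in p2, at a median of 0.30 overall and 1.11 at E10.5. Mpo, the myeloperoxidase of early myeloid cells, was at 206 CPM in p1 and 259 CPM in p2, with intervals of 172 to 243 and 224 to 299 that overlapped. Spi1, the transcription factor PU.1, was at 130 and 66.9 CPM, a log2 ratio of 0.95 (0.43 to 1.49) and 1.61 at E10.5, with counts in 14 p1 and 15 p2 cells. Macrophage markers were low, with 7 of 12 at 0 in both populations (C1qa, C1qb, C1qc, Adgre1, Cd14, Cx3cr1 and Ctss), and only Lyz2 reached 20 counts, at 178 and 101 CPM.

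The gene lists that the study used for these fates were split between the populations. Its LMP-fate and EMP-fate lists were built from differences that include p1 against p2 in short reads of these cells, so their direction is no independent evidence. The LMP-fate list used here held 15 genes, more than the study's figure legend gives for that signature. Of the 15 genes 10 were measured, and 4 were 2-fold higher in p1 and 1 (Slc35d3) in p2. The median of the measured genes was 0.98 over all cells and 0.99 at E10.5. The summed LMP-fate level ran from 2144 through 4970 to 10910 CPM over p1 cells and from 461 through 1386 to 3284 CPM over p2 cells. Igf2 alone gave 3021 of the 5411 CPM in p1 and 387 of the 1572 CPM in p2. Besides Igf2, H19 and Cd53, the list held Lcp1, an actin bundler of leukocytes, at 45.8 and 16.4 CPM, with a ratio of 0.05 at E10.5. The others lay under 2-fold, with Gimap6, a small GTPase of lymphocytes, at 0.99, Itm2b at 0.96, B2m, the light chain of class I molecules, at 0.79, Grcc10 at 0.64 and Tspan13 at 0.55. Slc35d3, a nucleotide sugar transporter of platelet dense granules, went against its list, at 15.2 CPM over 3 p1 cells and 90.1 CPM over 13 p2 cells. Of the members under 20 counts, Mndal had 14.5 counts in p1 and none in p2, Psmb8 15 and 4, St8sia4 9 and 0, Neurl3 7 and 1, and Fam174a 2 and 0.

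Of the 8 EMP-fate genes, 6 were measured and all 6 lay below 0, overall and among E10.5 cells. Mlec, a carbohydrate-binding protein of the endoplasmic reticulum, was at 4.57 and 43.7 CPM, a log2 ratio of -3.06 (-5.61 to -1.58). Slc22a3, an organic cation transporter, was at 7.62 and 49.2 CPM, but at 8.99 and 12.7 CPM among E10.5 cells. Odc1, the first enzyme of polyamine synthesis, was at 26.7 and 62.98 CPM (log2 ratio -1.21, -2.07 to -0.38). Eno1b, a glycolytic enzyme gene nearly identical to Eno1 and so uncertain, had a ratio of -0.91, Ncl (nucleolin) -0.54 and Hsp90aa1 -0.41. The counts of Ncl and Hsp90aa1 are high enough for narrow counting intervals, 955 to 1112 CPM against 1409 to 1588 CPM for Ncl, and 1102 to 1270 CPM against 1489 to 1672 CPM for Hsp90aa1. Rap1b had 5 and 9 counts.

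The longer published LMP and EMP lists split in the same directions. The study scored these published lists per cell in short reads and called the difference of p1 and p2 minimal. Members past 2-fold in summed counts are another measure. Of 67 LMP genes only 16 were measured, of which 9 were 2-fold higher in p1 and 2 in p2, at a median of 1.12 overall and 2.42 at E10.5. Their largest ratios were those of Emcn, Runx2, Gsn (gelsolin) and Calcrl, which are known mainly from endothelium, bone and the cytoskeleton. Of 90 EMP genes 50 were measured, of which 19 were 2-fold higher in p2 and 1, H19, in p1, at a median of -0.75 overall and -0.58 at E10.5. Grb10, an imprinted adaptor of insulin signalling that is on the EMP list, had 3 counts in p1 and 27 in p2. Grb10 was at 5.39 and 4.23 CPM at E10.5. At the summed level the EMP list overlapped widely, from 2904 to 7866 CPM over p1 cells and from 3705 to 10038 CPM over p2 cells.

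**Figure D4:**
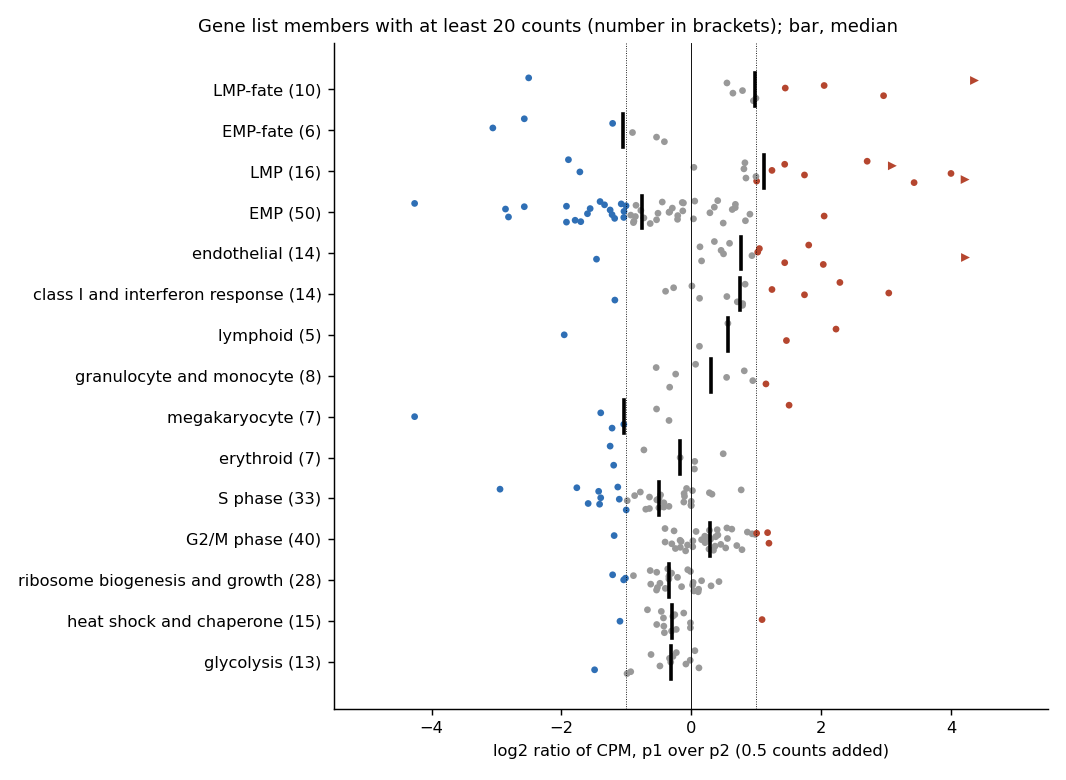
Log2 ratio of p1 over p2 for each measured member of the gene lists, each point 1 gene, with a bar at the list's median. Triangles mark genes with 0 counts in p2, drawn with 3 counts taken for p2. The medians of the lists drawn run from -1.06 for the EMP-fate list to 1.12 for the LMP list.

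Endothelial genes stood higher in p1. Of 23 listed genes 14 were measured, 6 were 2-fold higher in p1 and 1, Tie1, in p2, and 13 of 14 lay above 0, at a median of 0.76 overall and 0.90 at E10.5. The summed level of the list ran from 561 through 1394 to 3823 CPM over p1 cells and from 191 through 967 to 3574 CPM over p2 cells, so the ranges overlapped nearly throughout. Emcn (50 and 0 counts) and Ramp2 led the list. Cdh5, the endothelial cadherin, had 16 counts in p1 and 4 in p2, but 1 p1 cell held 93.8% of the p1 counts, and without that cell the log2 ratio was -1.33. The arterial markers could not be compared, since none of 20 reached 20 counts. None of 4 venous markers did either, and Vwf, an endothelial and platelet glycoprotein, had no count in p1 and 1 in p2. Of the yolk sac endothelium list 5 of 30 genes were measured, with only Lgmn past 2-fold, and Lyve1, the hyaluronan receptor of the plexus, had 12 and 17 counts. Lyve1 had been at 44.1 CPM in HE-YSA late and 414 CPM in HE-YSP late.

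Both chains of the receptor for adrenomedullin were higher in p1. Calcrl, from the LMP list, is the receptor chain, and Ramp2, from the endothelial list, is the small co-receptor that carries it to the surface and makes it bind adrenomedullin, a peptide that vessels need in the embryo. Calcrl ran from 0 through 35.1 to 194 CPM over p1 cells and from 0 through 0 to 60.4 CPM over p2 cells. It had counts in 11 p1 and 2 p2 cells, with 8 p1 cells above both. The summed levels were 65.5 and 5.46 CPM, which is 10.8-fold higher in p1 (log2 ratio 3.43, 2.12 to 5.52), with 3.05, 4.74 and 2.78 in the 3 runs. At E10.5 Calcrl was at 73.7 CPM in p1 and had no counts in p2. Ramp2 ran from 61.4 through 433 to 1536 CPM over p1 cells and from 30.2 through 105 to 988 CPM over p2 cells. Its summed levels were 508 and 145 CPM, a log2 ratio of 1.81 (1.49 to 2.14) overall and 2.06 at E10.5. In late HE, Calcrl was at 184 CPM in HE-YSA and 75.5 CPM in HE-YSP, and Ramp2 at 1138 and 862 CPM.

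The Ramp2 difference lay in 1 transcript. Ramp2-204, a protein-coding form, made up 73.4% (68.3 to 78.0) of the 334 Ramp2 counts in p1 and 29.2% (20.8 to 38.9) of the 106 in p2. Ramp2-203 made up 23.01% and 69.8%. Both are printed here across the junction where they part, since that junction tells a read of one from a read of the other. The 40 bases before the junction are shared and in lower case, and the 40 bases after it, in capitals, belong to the exon particular to each form. The shared exon ends at chr11:101247105-101247144 on the plus strand of mouse build GRCm38 (GENCODE M21), and the particular exon starts at chr11:101247586-101247625 in Ramp2-204 and at chr11:101253604-101253643 in Ramp2-203.
Ramp2-204: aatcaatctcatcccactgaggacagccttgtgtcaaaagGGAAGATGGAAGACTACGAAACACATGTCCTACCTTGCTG
Ramp2-203: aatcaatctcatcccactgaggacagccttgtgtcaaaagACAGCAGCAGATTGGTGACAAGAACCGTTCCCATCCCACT

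Ramp2-203 is a model annotated for nonsense-mediated decay that runs from Ramp2 into the next gene. Of its 8 exons 6 overlap exons of Vps25, a subunit of the ESCRT-II sorting complex, and 1103 of its 1478 bases (74.6%) lie in Vps25 exons. Reads of Vps25 can therefore align to it. Its level was much the same in both populations, with 76.8 counts in 17 of 17 p1 cells and 74.03 counts in 18 of 20 p2 cells, a log2 ratio of 0.21 (-0.26 to 0.70). The gene Vps25, looked at after these values were seen, had 96.2 and 106 counts. Ramp2-204 ran from 0 through 236 to 1317 CPM over p1 cells and from 0 through 0 to 988 CPM over p2 cells. It had 245 counts in 14 of 17 p1 cells and 31 counts in 5 of 20 p2 cells, which is 8.69-fold higher in CPM (log2 ratio 3.12, 2.60 to 3.73). The ratio was 3.69, 1.93 and 4.53 in the 3 runs and 4.15 at E10.5. Its share of Ramp2 counts was 61.4%, 73.8% and 76.4% in the p1 runs and 10.9%, 70.8% and 10.9% in the p2 runs, so p2 run 2 lay among the p1 runs. In p2 run 2, however, 1 cell of E9.0 held 988 CPM of Ramp2-204. The other p2 cells of that run held 37.6 to 128 CPM of Ramp2 as a whole. The gene-level ratio of Ramp2, 1.81, was 3.14 when Ramp2-203 was left out of the gene.

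Genes of class I antigen presentation and the interferon response stood slightly higher in p1. Of 28 listed genes 14 were measured, with 4 (Ifitm1, Ly6e, Tapbp and Ifitm3) 2-fold higher in p1 and 1 (Psmb10) in p2, at a median of 0.75 overall and 0.39 at E10.5. The run medians were 0.0011, 1.09 and 0.89, so run 1 did not show it. B2m and H2-K1 were both at 0.79 and H2-D1 at 0.71. Ifitm3, an antiviral membrane protein, had a ratio of 1.24 that came from run 3, at 5.82 against -0.53 and 0.25 in the other runs, and it was -0.60 at E10.5. Ly6e had counts in 10 p1 and 3 p2 cells, with a ratio of 2.29 overall and 0.89 at E10.5. The 3 measured Gimap genes, GTPases of lymphocytes, lay at -0.08, 0.78 and 0.99.

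The transcription factors and surface genes that mark the stage of EHT mostly did not differ by 2-fold. Runx1, which starts the blood program, had 11 counts in p1 and 14 in p2, and Gfi1, the repressor used as a reporter in the sort, had none in either. Read as allowing 3 counts, a 0 means up to 4.57 CPM in p1 and 4.10 CPM in p2. Myb had 31 and 38 counts and Mycn 128 and 139 counts. Their log2 ratios had intervals of -0.87 to 0.59 for Myb and -0.32 to 0.40 for Mycn. These intervals lay within 2-fold, but they hold counting error only. Among E10.5 cells the log2 ratio was -0.87 for Myb and 0.44 for Mycn. Kit, the stem cell factor receptor, was at 97.5 and 51.9 CPM (log2 ratio 0.90, 0.31 to 1.53), with 0.18, 1.93 and 0.86 in the 3 runs. Among E10.5 cells Kit was at 62.9 CPM (43.8 to 87.5) in p1 and, with 1 count, at 4.23 CPM (0.11 to 23.6) in p2, a log2 ratio of 3.33. Gata2, a factor shared by HE and megakaryocyte precursors, had 8 and 21 counts. Of 15 blood transcription factors measured, 2 (Cbfb and Erg) were 2-fold higher in p1 and 1 (Gata2) in p2, at a median of 0.05 overall and 0.04 at E10.5. Ptprc, which encodes the CD45 that the sort excluded, had 12 and 4 counts. Of 12 surface genes measured, Cd47, a signal against phagocytosis, and Ly6e were 2-fold higher in p1, and Itga2b and Cd9 in p2. Cd47 had the broader coverage, with 434 CPM over 16 p1 cells and 198 CPM over 19 p2 cells. Of the HE-selective list, 5 of 8 genes were measured, with only Hapln1, a matrix link protein, past 2-fold (2 counts in p1, 18 in p2), at a median of -0.06.

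Genes of DNA replication stood lower in p1 as a group. Of 43 S phase genes 33 were measured, none was 2-fold higher in p1, 9 were 2-fold higher in p2, and 29 of 33 lay below 0, at a median of -0.50 overall and -0.29 at E10.5. The run medians were 0.03, -0.55 and -0.97, so run 1 did not show it. The sum of the list ran from 1106 through 3525 to 6124 CPM over p1 cells and from 2441 through 5315 to 7368 CPM over p2 cells, and the ranges overlapped. The largest differences were in Dscc1, a cohesion loader (2 and 21 counts), Clspn, a replication checkpoint protein (16 and 62 counts), Ung, and Cdc6, an origin licensing factor (7 and 22 counts). Clspn was at 28.8 and 127 CPM at E10.5. The G2/M list showed the opposite sign, with 3 of 40 measured genes 2-fold higher in p1 and 1 in p2, at a median of 0.28 overall and 0.07 at E10.5. Its run medians were -0.36, 0.43 and 0.76, so run 1 went the other way.

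Genes of ribosome biogenesis, chaperones and glycolysis mostly lay slightly below 0. Of 28 ribosome biogenesis genes measured, 3 (Odc1, Rrp9 and Pes1) were 2-fold higher in p2, none in p1, and 20 of 28 lay below 0, at a median of -0.34 overall and -0.21 at E10.5. Of 15 heat shock and chaperone genes 14 lay below 0, with Hsf1, the factor that drives them, the exception at 1.09. Their median was -0.30 overall and -0.14 at E10.5, where 10 of 15 lay below 0. Of 13 glycolysis genes 11 lay below 0, at a median of -0.32 overall and -0.30 at E10.5, but the run medians were 0.02, 0.17 and -0.62, so only run 3 showed it. Hk2, a hexokinase with 7 and 23 counts, had a ratio of -1.49 that turned to 2.22 at E10.5. Immediate early genes, which handling can induce, had 3 of 6 measured members 2-fold higher in p1 (Dusp1, Fos and Klf6), at a median of 1.16 that was 0.05 at E10.5. Of 7 imprinted genes measured, 3 (Igf2, H19 and Sgce) were 2-fold higher in p1 and 3 (Grb10, Slc22a3 and Mest) in p2, so imprinted genes did not share a direction. Of 6 fetal genes linked to Lin28b and let-7, Igf2bp3 alone was past 2-fold, with 20 and 7 counts, and Lin28b had 15 and 11 counts.

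Markers of other tissues were few. Of 12 mesenchyme markers 8 were at 0 in both populations and none reached 20 counts, and of 12 yolk sac endoderm markers 10 were at 0 in both, Afp, Ttr and Alb included. The endoderm gene that remained, Apoe, which blood cells also express, was at 1872 and 1637 CPM (log2 ratio 0.19, 0.08 to 0.31).

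Transcript forms were compared as the share of a gene's counts that each annotated transcript took. Of 757 genes with at least 100 counts in each population, 120 (15.9%) had a transcript whose share differed by more than 0.1, and 14 by more than 0.2. Runs of the same population differed from each other as well. When 97 genes were thinned to 100 counts per run and population, 28.9%, 26.8% and 23.7% of them differed by more than 0.1 between p1 and p2 within runs 1, 2 and 3. Between runs within p1 the shares were 34.02%, 35.1% and 32.99%, and within p2 they were 29.9%, 27.8% and 29.9%. The shares within p1 lay above those between p1 and p2, and the shares within p2 overlapped them. So a shift of this size in a single gene does not stand out from the difference between groups of cells of the same population. Of 634 genes with at least 20 counts per population in each run, 63 had a shift over 0.1 with the same sign in all runs. The 8 with the largest shift among genes of 1 sign in every run were Ramp2, Atp5mf, Slc3a2, Csnk1a1, Exosc3, Mrpl4, Rnf44 and Jmjd6. Size and a shared sign over runs were part of that choice, so runs that stand apart for these genes are description and no further support.

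Exosc3 encodes a cap subunit of the RNA exosome. Its full-length form Exosc3-201 took 61.4% (51.8 to 70.4) of 114 counts in p1 and 32.9% (25.7 to 40.8) of 161 counts in p2. The runs gave 51.2%, 60% and 72.1% in p1 and 28.8%, 27.8% and 39.4% in p2, so the groups of runs did not overlap. At E10.5 it was 60.6% against 31.2%. A shorter form with another first exon, Exosc3-204, took 11.7% and 28.7%. Jmjd6, an arginine demethylase and lysyl hydroxylase, shifted between a coding form, Jmjd6-201, at 41.6% in p1 and 16.5% in p2, and a form marked for nonsense-mediated decay, Jmjd6-204, at 25.9% and 51.98%. The junctions at which these pairs part are printed in build GRCm38, 40 bases on each side, with the particular exon in capitals. Exosc3 lies on the minus strand of chromosome 4, where the shared exon starts at chr4:45319660-45319699 and the particular exon ends at chr4:45320271-45320310 in Exosc3-201 and chr4:45342675-45342714 in Exosc3-204. Jmjd6 lies on the minus strand of chromosome 11, where the shared exon ends at chr11:116840410-116840449 and the particular exon starts at chr11:116839089-116839128 in Jmjd6-201 and chr11:116839887-116839926 in Jmjd6-204.
Exosc3-201: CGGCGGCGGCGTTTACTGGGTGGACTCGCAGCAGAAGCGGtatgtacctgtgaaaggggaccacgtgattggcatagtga
Exosc3-204: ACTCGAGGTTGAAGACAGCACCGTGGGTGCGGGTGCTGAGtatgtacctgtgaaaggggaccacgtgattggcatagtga
Jmjd6-201: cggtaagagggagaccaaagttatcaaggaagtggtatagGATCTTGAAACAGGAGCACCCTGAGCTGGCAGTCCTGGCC
Jmjd6-204: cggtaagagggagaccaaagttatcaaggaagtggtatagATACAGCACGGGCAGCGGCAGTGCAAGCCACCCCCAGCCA

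Slc3a2, the heavy chain (CD98) of amino acid transporters, had more of a retained-intron form in p1. Slc3a2-209, which keeps an intron, took 30.3% (22.3 to 39.3) of 122 counts in p1 and 5.63% (2.60 to 10.4) of 160 counts in p2. Its share was 38.5%, 36% and 22.4% in the p1 runs and 5.33%, 5.36% and 6.90% in the p2 runs, so every p1 run lay above every p2 run. The coding form Slc3a2-207 took 29.97% and 62.1%. Atp5mf, a subunit of mitochondrial ATP synthase, had the coding form Atp5mf-202 at 71.3% (64.7 to 77.6) in p1 and 38.5% (31.2 to 46.8) in p2. The p1 runs gave 62.7% to 73.99% and the p2 runs 33.3% to 41.7%, again without overlap. In p2 run 2 and in p2 cells of E10.5, however, Atp5mf-201, Atp5mf-202 and Atp5mf-204 each took 33.3%. Equal shares can come from reads divided evenly among forms, so the Atp5mf shares are uncertain.

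The remaining genes varied more between runs. Csnk1a1-206, of casein kinase 1 alpha, took 63.3% in p1 and 34.5% in p2, but 33.3% in p1 run 2. Mrpl4-201, of a mitochondrial ribosomal protein, took 51.2% and 78.5%, with 24.5% in p1 run 2. Rnf44-206, of a ring finger protein, took 67.1% and 40.2%. The M1 and M2 forms of pyruvate kinase differ by 1 exon of the gene Pkm. Pkm-201 took 60.96% of 452 counts in p1 and 70.6% of 592 in p2, and Pkm-202 20.7% and 13.6%. At E10.5 the shares were 56.3% and 52.7% for Pkm-201 and 24.2% and 23.9% for Pkm-202. Runx1, Ptprc, Kit, Myb and Ikzf1 had too few counts for a comparison of forms, with 43 and 44 counts for Ikzf1 and fewer than 100 in each population for all 5.

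**Figure D5:**
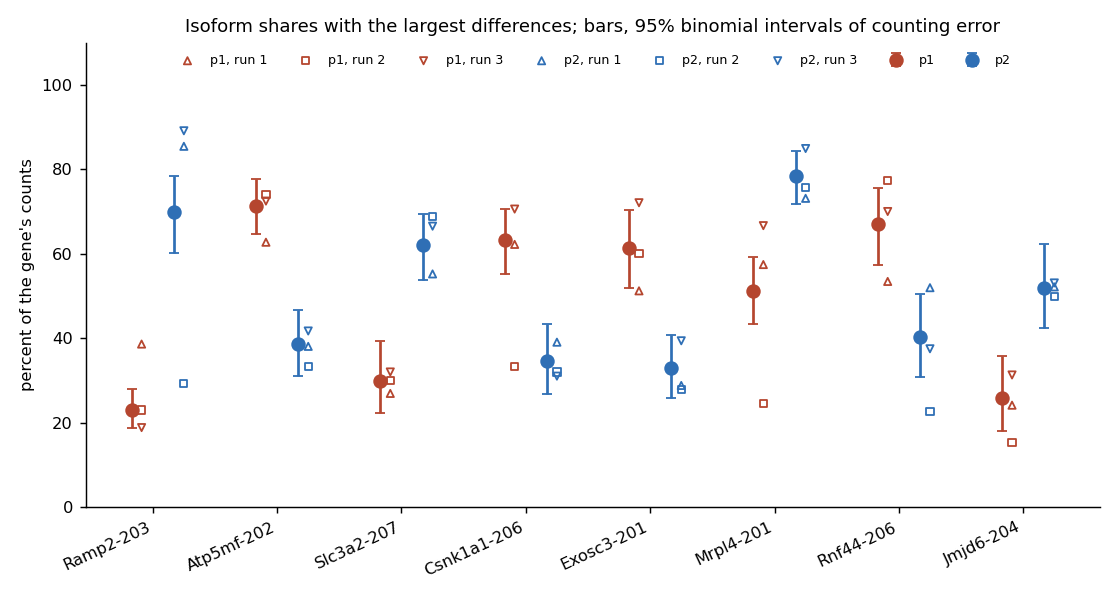
Share of a gene's counts, in percent, taken by the named transcript of 8 genes in p1 and p2, with 95% exact binomial intervals for counting error only and a symbol for each nanopore run. The p1 and p2 runs do not overlap for Atp5mf-202 and Exosc3-201, whereas p1 run 2 reaches the p2 runs for Csnk1a1-206.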

How the data were processed

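Smart-seq2 cDNA of single cells was sequenced on a nanopore instrument. Basecalling by the authors used Dorado. Adapter trimming (bbduk) and filters against chimeras (YACRD, porechop) followed, and the reads were mapped to GENCODE transcripts, of a release not matched here to a genome build, by minimap2 2.26 with at most 10 alignments retained for each read. NanoCount then gave the deposited estimated counts, which are raw and fractional, since a read that aligns to several transcripts is divided among them, and 47% of the values above 0 were not whole numbers within 0.001. A table of the same values scaled per cell was not used.

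Cells were grouped by the cluster in their labels, and cells under 17595 counts (1 scaled median absolute deviation below the median) were dropped, following the study's own filter. Counts were summed over cells and transcripts. Ratios are log2 of CPM with 0.5 counts added, and a 0 was read as allowing 3 counts over the population. Cells are not replicates, so no test was run. Counts were rounded for intervals, and a cell had a gene with at least 1 count, within 0.001. The precision is set by the 656575 and 732446 summed counts. A difference was counted at 2-fold, or at 0.1 for isoform shares. Named genes were fixed genes, the study's fate lists, and in each direction the 12 largest ratios among genes with 100 counts, seen in at least 50% of cells of the higher population, of 1 sign in each run and at E10.5, without processed pseudogenes, together with up to 4 members per list. Vps25 was chosen after its values were seen. The members, lists and rules were chosen with earlier results of these data known. List symbols not found in the files were Ddx39, Fam65a, Mrvi1, Itbp4 and Sepp1. Junction sequences came from GENCODE M21 transcripts on GRCm38, matched by identifier and length, not version. Scripts were tested on simulated data. Python 3.11.15, numpy 2.4.6, pandas 2.3.3, scipy 1.17.1 and matplotlib 3.10.9 were used, with R 4.3.3, edgeR 4.0.16 and DESeq2 1.42.0 for size factors only. Alternatives covered limits on cells and counts, scaling, added counts, runs, stage, plate, gate, depth and single cells.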

Additional observations from a re-analysis of the deposited data

How the results depend on the processing

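The counts of genes at least 2-fold higher in p1 and in p2, and of genes with an isoform shift, were 62, 63 and 120. They stayed within 1.5 times under TMM (71, 49 and 120) and median-ratio scaling (66, 54 and 120), under other added counts and limits on cells, and with any 1 cell left out (53 to 68, 48 to 64 and 108 to 128). They moved further with fewer counts or cells. At a minimum of 20 counts they were 566, 571 and 968, and at 300 counts 11, 5 and 12. Without a minimum the gene counts were 2291 and 2227. In run 1 alone they were 27, 13 and 32, in run 2 alone 15, 20 and 30, and in run 3 alone the last 2 were 28 and 55. Without run 1 the genes higher in p2 were 35, and without run 3 the counts were 35, 38 and 71. Among E10.5 cells they were 38, 27 and 44, on plates WN-S6-3 and WN-S6-4 at E10.5 the last 2 were 21 and 41, with cells thinned to equal totals 27, 20 and 49, and at limits of 4-fold and 0.2 they were 7, 0 and 14. Direction turned, for genes and list medians past 2-fold and for the 8 transcript shifts, in 41 of the 1749 gene values computed, 3 of 456 list medians and 1 of 152 shifts. In run 1 alone Bcl11a turned to -2.65, Cdc6 to 1.26, Dscc1 to 0.52, Ifitm3 to -0.53 and Satb1 to 2.84. In run 2 alone Cbfb turned to -2.83, Cdh5 to -1.24, Fos to -0.94, Gata2 to 0.34, Gp9 to 1.93, Gsn to -1.24, Hk2 to 0.34, Mest to 3.15 and Prtn3 to -3.74. In run 3 alone Cd9 turned to 0.33, Itga2b to 1.19 and the median of the platelet and megakaryocyte markers to 0.50. Without run 1 Gp9 was at 1.26 and that median at 0.43, and without run 3 Bcl11a was at -2.72, Cdh5 and Gsn at -1.13, Ifitm3 at -0.30, Igf2bp3 at -0.034 and Satb1 at 0.45. Among E10.5 cells Blvrb turned to 1.93, Cdh5 to -2.82, Hk2 to 2.22, Ifitm3 to -0.60 and Satb1 to 1.93. On those plates at E10.5 Blvrb and Satb1 turned to 1.81, Cdc6 and Dscc1 to 0.96, Cdh5 to -2.94, Hk2 and Slc22a3 to 2.10, Ifitm3 to -0.60 and the Rnf44-206 shift to -4.78 points. In the Runx1 gate Cdh5 was at -2.62, Gp9 at 0.74 and the platelet median at 0.076. Gp9 turned to 0.24 in thinned cells. With 1 cell left out Gp9 lay from -3.48 to 0.22 and Cdh5 from -1.33 to 2.80. The cause was not tested. The Ramp2 ratio without Ramp2-203 was chosen after seeing the data. No paired analysis was possible because each population is 1 sample and no result comes from a test.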
